A study of Mus musculus with 22 samples.

Results

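Interferon-gamma signalling was described here through 9 genes, Ifng, Ifngr1, Ifngr2, Stat2, Irf1, Irf7, Irf8, Irf9 and Socs1, which were chosen by name. All 9 were found among the 46882 genes of the deposited table that covers MC38 cells, skin and tumors. The study asked how tumors grown from one cell line change in mice with and without an adaptive immune system. RNA was measured as 3′ tags (QuantSeq, in which a read marks the end of a transcript and no length correction is needed within a gene) in 16 libraries. The groups were MC38 cells of day 0 (n = 2) and normal skin labelled day 23 (n = 2), and 4 tumor groups of 3 libraries each.

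The MC38 line comes from a chemically induced colon adenocarcinoma of a C57BL/6 mouse, and its cells were injected under the skin of the flank. Skin came from wild-type C57BL/6N mice aged 8 to 12 weeks. Wild-type tumors came from C57BL/6N hosts of the same age at day 23 and at day 46. Tumors labelled RAG1-/- came from hosts of the strain background B6.129S7-Rag1tm1Mom/J, also aged 8 to 12 weeks, at day 13 and at day 23. These hosts lack mature T cells and B cells and still have natural killer cells and myeloid cells. The strain backgrounds of the hosts differ as well as the Rag1 allele, and only day 23 was sampled in both. Each excised tumor was split into pieces for DNA, RNA or flow cytometry. The labels do not say that the replicates were separate animals or cultures, so p-values measure the spread between these samples, which may be technical.

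The labels were checked against marker genes. Rag1 stood at 1.07 to 11.4 normalized counts in the 6 tumors labelled RAG1-/- and at 0 to 0.628 in the 6 wild-type tumors, but the 3′ tags lie outside the deleted part of the gene, so they check nothing. The T cell gene Cd3e was at 0 in all 6 tumors labelled RAG1-/- and at 3.91 to 23.2 in the wild-type tumors. Cd8a and Cd8b1 also had every wild-type tumor above every tumor labelled RAG1-/-, while Cd3d, Cd3g, Cd4, Lck and Thy1 overlapped. Cd4 was at 16.2 in RAG1-/- day 13 replicate 3 and at 0 in wild-type day 23 replicate 3. The epithelial markers Krt18 and Krt19 were at 0 in both MC38 libraries, and Krt8, Epcam and Cdh1 did not exceed 4.28 there, so the defining markers of an epithelium were absent or nearly so. Wild-type day 23 replicate 2 carried the keratinocyte gene Krt5 at 136 normalized counts, against 0 to 1.95 in the other 11 tumors. Skin replicate 2 stood above skin replicate 1 in interferon-stimulated genes. The summed level of the 28 counted below as ISGF3 targets was 19053 in replicate 2 and 6947 in replicate 1. The members are compared below beside Irf7. Libraries held 5589151 to 26134241 reads on genes.

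Interferon-gamma is released mainly by activated T cells and natural killer cells. It binds a receptor built of the chains Ifngr1 and Ifngr2, whose kinases Jak1 and Jak2 start a signal that ends at gamma-activated sites (GAS) in the promoters of genes such as Irf1. Type I interferons act through a second complex, ISGF3, which contains Stat2 and Irf9 and binds interferon-stimulated response elements (ISRE) in genes such as Irf7. Irf8 is a factor of macrophages and dendritic cells that interferon-gamma also induces, and Socs1 binds the Jak kinases and switches the signal off.

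The upstream sequences of the genes were read from RefSeq (GRCm38.p6) and searched on both strands for 2 motifs, the GAS core TTCNNNGAA and an ISRE-like repeat GAAANNGAAA. All 9 genes matched and had 12 windows of 250 bases before a transcript start, since Irf1, Irf8 and Irf9 had 2 starts. Of all 32851 RefSeq promoters cut to the same length, 7.02% held the GAS core and 2.98% the ISRE-like repeat. The GAS core was found in the windows of Ifng, Irf1 and Irf8 and the ISRE-like repeat in those of Stat2 and Socs1. In Irf1 the GAS core lay 90 to 82 bases before the start. In Socs1 the 2 ISRE-like matches overlapped each other, from 83 to 68 bases before the start. The windows of Ifngr1, Ifngr2, Irf7 and Irf9 held neither motif, which says only that these letters are not in these windows. A match is a description of the sequence and not a site of binding. The 5 windows that held a motif are shown to set the genes with a GAS core beside those with an ISRE-like repeat, and capitals mark the motif.
Ifng, chr10:118440796-118441045, plus strand: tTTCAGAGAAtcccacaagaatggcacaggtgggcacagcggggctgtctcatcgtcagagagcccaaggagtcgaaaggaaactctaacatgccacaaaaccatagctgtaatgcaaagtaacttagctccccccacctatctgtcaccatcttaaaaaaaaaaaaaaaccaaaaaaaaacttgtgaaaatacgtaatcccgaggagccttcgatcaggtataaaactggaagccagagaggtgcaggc
Irf1, chr11:53769764-53770013, plus strand: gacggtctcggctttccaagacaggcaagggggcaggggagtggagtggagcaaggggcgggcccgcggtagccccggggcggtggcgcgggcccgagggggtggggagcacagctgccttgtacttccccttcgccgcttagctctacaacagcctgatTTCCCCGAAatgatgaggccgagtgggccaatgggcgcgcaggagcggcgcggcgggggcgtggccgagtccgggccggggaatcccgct
Irf8, chr8:120736108-120736357, plus strand: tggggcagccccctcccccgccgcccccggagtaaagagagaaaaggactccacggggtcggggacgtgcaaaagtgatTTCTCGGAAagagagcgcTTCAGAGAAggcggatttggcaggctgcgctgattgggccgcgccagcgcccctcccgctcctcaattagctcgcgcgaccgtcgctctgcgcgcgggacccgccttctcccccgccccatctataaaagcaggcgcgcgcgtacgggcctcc
Stat2, chr10:128270248-128270497, plus strand: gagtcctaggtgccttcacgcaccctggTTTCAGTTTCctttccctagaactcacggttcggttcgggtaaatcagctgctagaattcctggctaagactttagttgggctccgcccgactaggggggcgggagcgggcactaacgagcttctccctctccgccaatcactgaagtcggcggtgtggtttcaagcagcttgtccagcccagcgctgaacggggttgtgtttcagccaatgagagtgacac
Socs1, chr16:10785537-10785786, minus strand: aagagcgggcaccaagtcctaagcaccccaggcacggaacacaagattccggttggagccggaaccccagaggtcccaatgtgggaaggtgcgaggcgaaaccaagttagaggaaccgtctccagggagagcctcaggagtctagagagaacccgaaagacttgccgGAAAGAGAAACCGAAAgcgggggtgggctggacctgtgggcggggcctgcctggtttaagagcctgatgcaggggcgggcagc

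Ifng, the ligand (chromosome 10, 118441046 to 118445892, GRCm38, plus strand), was nearly absent outside wild-type tumors and low within them. It stood at 0 in both MC38 libraries, at 1.34 and 0 normalized counts in skin and at 0 in the 3 RAG1-/- tumors of day 13. The RAG1-/- tumors of day 23 held 5.24, 0 and 1.33. Wild-type tumors held 22.9, 3.41 and 9.51 at day 23 and 2.93, 14.8 and 1.26 at day 46. All 6 wild-type tumors were thus above 0, but day 23 replicate 2 and day 46 replicates 1 and 3 lay below RAG1-/- day 23 replicate 1. The lowest of them lay below both RAG1-/- tumors in which Ifng was read, so the genotypes overlapped. These levels rest on 68 reads over the wild-type tumors and 7 reads over the tumors labelled RAG1-/-. Of the 68 reads, wild-type day 23 replicate 1 held 31 and day 46 replicate 2 held 22. Over both days the wild-type mean was 9.12 ± 8.41 (SD, n = 6) and the RAG1-/- mean was 1.09 ± 2.10 (SD, n = 6). The fitted log2 fold change of 2.23 (SE 0.69, limma adjusted p = 0.202) did not pass the threshold of 0.05 over all genes. Its size depended on how low counts were handled, with 4.32 at a pseudocount of 0.1, 1.06 at a pseudocount of 5, 4.14 in edgeR and 3.73 in DESeq2, and no setting called it. A two-sided exact permutation test of Ifng alone, 1 of 9 such tests in this comparison, gave p = 0.0152 unadjusted. Against MC38 cells, which held 0 reads, no ratio can be given. At the upper end of a 95% counting interval for those 0 reads, the wild-type mean would be 5.42-fold higher than MC38 cells. A level of 3 reads over both MC38 libraries would be 1.37 normalized counts, and the wild-type mean was 6.67 times that level. Ifng passed the filter for a mean of 5 normalized counts among the 12 tumors only through the wild-type tumors, and the filter left it out of the fits with MC38 cells. Of its exonic bases 25.9% are shared with Gm49751 on the same strand, none of them within the last 500 exonic bases where 3′ tags fall.

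**Figure D1:**
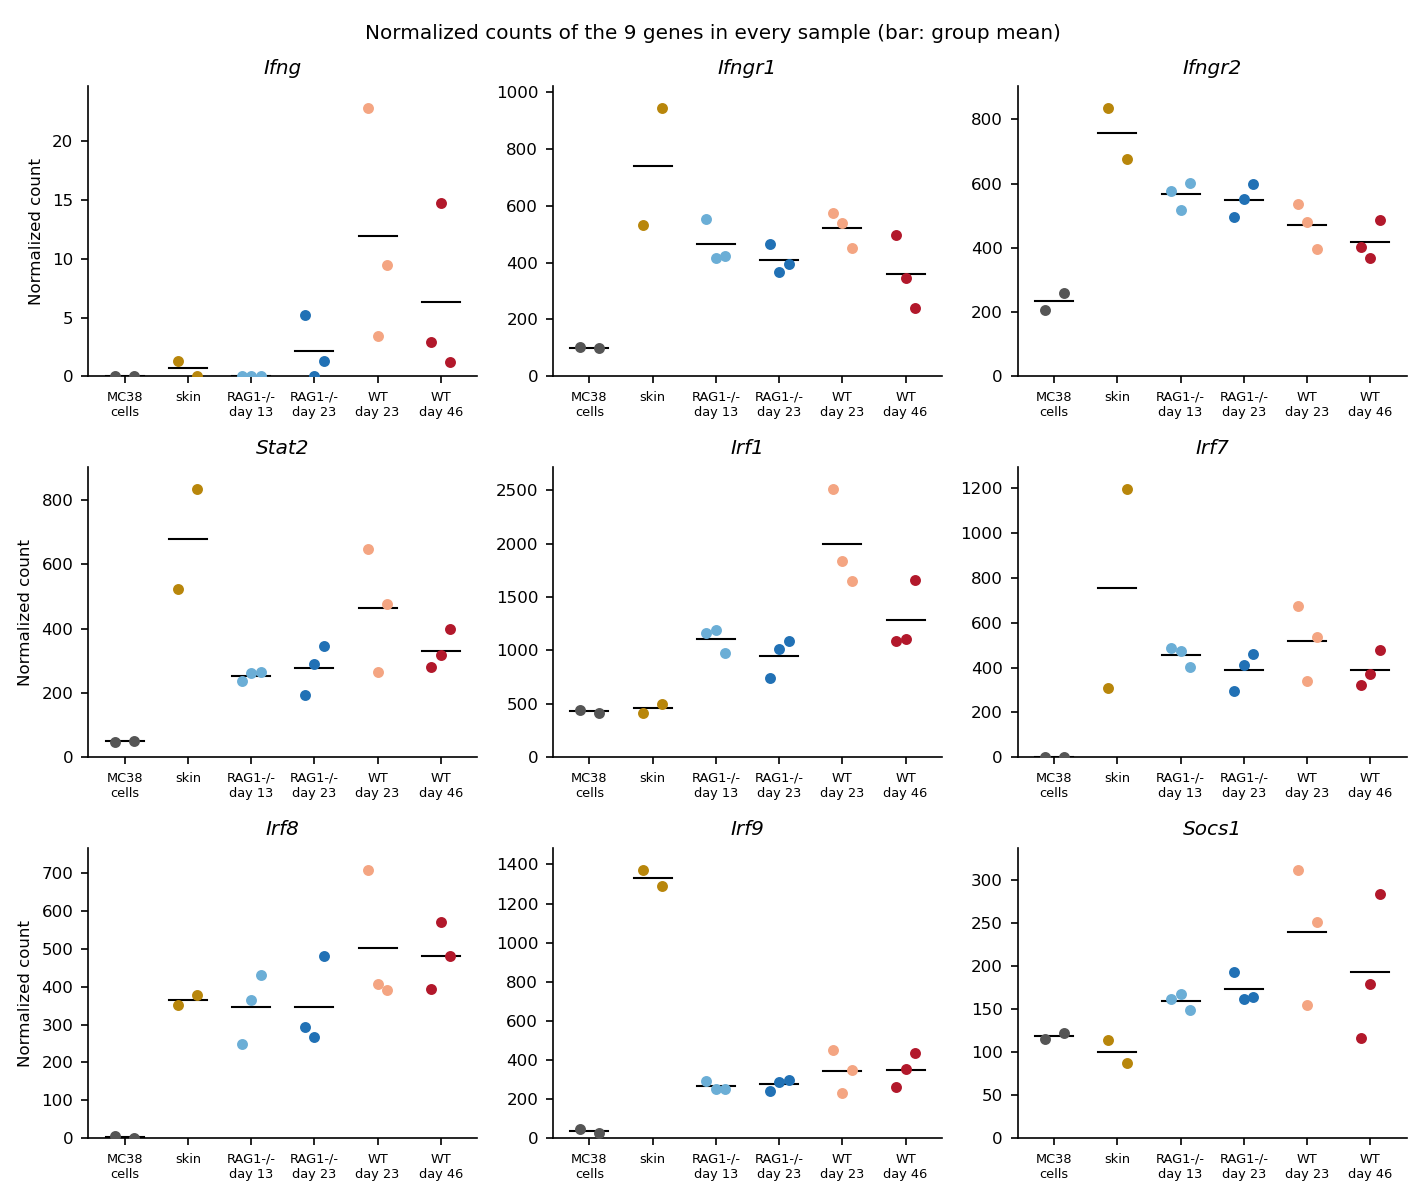
Normalized counts (linear axes from 0, a separate scale for each gene) of the 9 genes in MC38 cells, skin, RAG1-/- tumors of day 13 and day 23 and wild-type (WT) tumors of day 23 and day 46. Each point is 1 library and each bar a group mean. Irf7 and Irf8 sit near 0 in MC38 cells, and the 3 wild-type day 23 tumors lie above all RAG1-/- tumors for Irf1.

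The receptor chain Ifngr1 (chromosome 10, 19591949 to 19610229, plus strand), which binds the ligand, was read in every library. MC38 cells held 104 and 98.7 normalized counts and skin 532 and 946. RAG1-/- tumors held 554, 416 and 424 at day 13 and 466, 366 and 396 at day 23. Wild-type tumors held 573, 538 and 452 at day 23 and 498, 344 and 240 at day 46. All tumors lay above both MC38 libraries, and the 4 tumor groups overlapped each other. Wild-type and RAG1-/- tumors had nearly the same mean over both days, 441 ± 126 (SD, n = 6) and 437 ± 66.1 (SD, n = 6), with a log2 difference of -0.03 (SE 0.16, limma adjusted p = 0.963).

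Ifngr2 (chromosome 16, 91547072 to 91565623, plus strand), the signalling chain, had a lower fitted level in wild-type tumors both at day 23 and over both days, though neither difference passed the test. MC38 cells held 208 and 260.0 normalized counts and skin 837 and 676. Tumors labelled RAG1-/- held 578, 519 and 603 at day 13 and 495, 551 and 599 at day 23. Wild-type tumors held 535, 481 and 398 at day 23 and 404, 369 and 486 at day 46. Of the 6 wild-type values 5 lay below every RAG1-/- value. The genotypes overlapped through wild-type day 23 replicate 1. The fitted difference over both days was -0.33 (SE 0.12, limma adjusted p = 0.282), which did not pass, and the unadjusted exact permutation p was 0.0108.

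Stat2 (chromosome 10, 128270559 to 128292849, plus strand) is the STAT of the ISGF3 complex. It stood at 47.1 and 51.8 normalized counts in MC38 cells and at 524 and 836 in skin. RAG1-/- tumors held 236, 261 and 264 at day 13 and 194, 292 and 347 at day 23. Wild-type tumors held 648, 265 and 477 at day 23 and 279.5, 317 and 399 at day 46. Wild-type day 23 replicates 1 and 3 and day 46 replicate 3 lay above every RAG1-/- tumor, and the other 3 wild-type tumors lay within the RAG1-/- range. The fitted difference was 0.69 at day 23 (SE 0.29, limma adjusted p = 0.391) and 0.53 over both days (SE 0.20, limma adjusted p = 0.320), and neither passed. At day 23 the value was 0.40 without wild-type replicate 1, 0.45 without RAG1-/- replicate 1 and 1.04 without wild-type replicate 2.

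Irf1 (chromosome 11, 53770014 to 53778374, plus strand), an interferon-gamma-induced transcription factor whose window holds the GAS core shown above, was the member that passed the test between genotypes. It stood at 447 and 417 normalized counts in MC38 cells and at 414 and 501 in skin. Tumors labelled RAG1-/- held 1164, 1191 and 976 at day 13 and 746, 1015 and 1087 at day 23. Wild-type tumors held 2516, 1834 and 1651 at day 23 and 1091, 1109.9 and 1662 at day 46. At day 23 every wild-type tumor lay above every RAG1-/- tumor, and at day 46 replicate 3 lay above every RAG1-/- tumor of either day. Day 46 replicates 1 and 2 lay above the RAG1-/- tumors of day 23 by little and within the range of those of day 13. The day 23 means were 2000.2 ± 456 (SD, n = 3) and 949 ± 179 (SD, n = 3), a ratio of 2.11 and a fitted log2 fold change of 1.07 (SE 0.21, limma adjusted p = 0.0438).

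This call at day 23 stood close to the threshold. In the same comparison 34 of 14746 genes, 0.231%, were called higher and 0.0475% lower, and 8.5% had wild-type tumors all above RAG1-/- tumors. Irf1 was the 1 member of 9 on both counts. Its adjusted p lay between 0.000666 and 0.227 over 17 alternative settings, 6 of which kept the call. The exact permutation test of 3 against 3 gave p = 0.1, the smallest it can give. Leaving out wild-type day 23 replicate 1 gave 0.89 (limma adjusted p = 0.186), leaving out replicate 2 gave 1.12 (limma adjusted p = 0.0862) and leaving out replicate 3 gave 1.20 (limma adjusted p = 0.0924). Without RAG1-/- day 23 replicate 1 it was 0.91 (limma adjusted p = 0.227), and without replicate 2 it was 1.13 (limma adjusted p = 0.0991). Leaving out RAG1-/- day 23 replicate 3 kept the call. Some markers of other cells moved with it at day 23. Of 7 tested T cell markers 2, Cd8a and Lck, were called higher in wild-type tumors. Of 2 tested B cell markers 1, Igkc, was called higher as well. None of the 7 macrophage and monocyte, 3 tested natural killer cell and 3 tested dendritic cell markers was called. The summed level of all 8 dendritic cell markers ran from 804 to 1244 in wild-type and from 381 to 695 in RAG1-/- tumors, with no overlap. Most of each sum was Itgax alone, at 701 to 1144 in wild-type and 302 to 580 in RAG1-/- tumors. The part of these cells in the level of Irf1 was not tested.

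Over both days the Irf1 means were 1644 ± 527 (SD, n = 6) and 1029.8 ± 162 (SD, n = 6). The fitted difference was 0.63 (SE 0.15, limma adjusted p = 0.0663) and did not pass, while DESeq2 called it with an adjusted p of 0.00510. Without RAG1-/- day 23 replicate 3 the limma adjusted p was 0.0482. None of the 9 members was called over both days, where 0.57% of all genes were called higher and 0.142% lower. The unadjusted exact permutation p was 0.0173 for Irf1, 0.0411 for Irf8 and 0.0476 for Stat2, and it lay between 0.0887 and 0.894 for Irf9, Socs1, Irf7 and Ifngr1. No member had all wild-type tumors above or all below the RAG1-/- tumors, against 0.651% and 0.332% of genes.

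**Figure D2:**
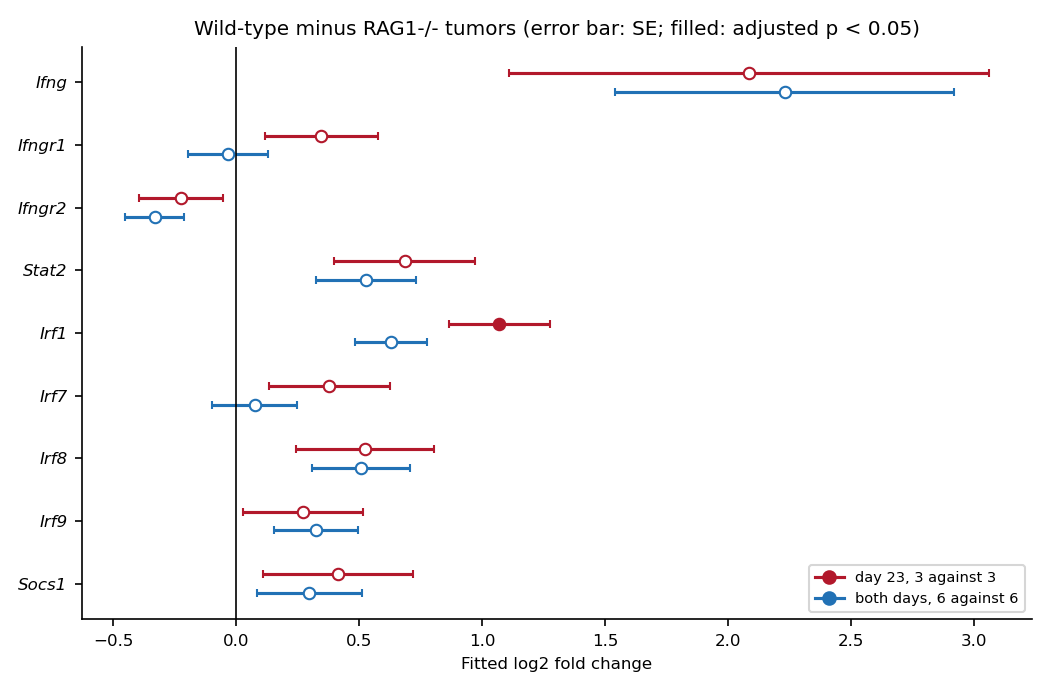
Fitted log2 fold change of wild-type minus RAG1-/- tumors for the 9 genes at day 23 (3 against 3 libraries) and over both days (6 against 6). Error bars are standard errors from limma and filled points have an adjusted p under 0.05, which holds for Irf1 at day 23 (1.07).

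Irf7 (chromosome 7, 141262706 to 141266481, minus strand), the factor that amplifies type I interferon production, was almost unread in MC38 cells. It stood there at 1.71 and 0.978 normalized counts, from 3 reads in all. Skin held 309 and 1199.6. Stat2, Ifngr1, Irf1 and Irf8 were also higher in skin replicate 2 than in replicate 1, while Ifng, Ifngr2, Irf9 and Socs1 were lower. RAG1-/- tumors held 487, 473 and 404 at day 13 and 296, 413 and 460.0 at day 23. Wild-type tumors held 676, 341 and 537 at day 23 and 323, 373 and 478 at day 46. Wild-type day 23 replicates 1 and 3 lay above every RAG1-/- tumor, and the other 4 wild-type tumors lay within the RAG1-/- range. The difference was 0.38 at day 23 (SE 0.24, limma adjusted p = 0.601) and 0.07 over both days (SE 0.17, limma adjusted p = 0.918), and neither passed.

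Irf8 (chromosome 8, 120736358 to 120756694, plus strand), the myeloid factor, was likewise near 0 in MC38 cells, with 5.13 and 0.978 normalized counts from 7 reads. Skin held 351 and 377. Tumors labelled RAG1-/- held 248, 365 and 429.6 at day 13 and 293, 268 and 481 at day 23. Wild-type tumors held 709, 407 and 389.8 at day 23 and 394, 570.0 and 482 at day 46. Every wild-type tumor lay above 4 of the 6 RAG1-/- tumors, and the groups overlapped. The fitted difference over both days was 0.51 (SE 0.20, limma adjusted p = 0.328).

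Irf9 (chromosome 14, 55603571 to 55610030, plus strand), the DNA-binding part of ISGF3, was highest in skin. Skin held 1374 and 1289 normalized counts and MC38 cells 49.6 and 25.4. RAG1-/- tumors held 294, 250.2 and 250.5 at day 13 and 239.6, 289 and 297 at day 23. Wild-type tumors held 449.9, 230.2 and 350.2 at day 23 and 263, 353 and 437 at day 46. Both skin libraries lay above every tumor, and 4 of the 6 wild-type tumors lay above every RAG1-/- tumor. The fitted difference between genotypes over both days was 0.32 (SE 0.17, limma adjusted p = 0.507).

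Socs1 (chromosome 16, 10782240 to 10785536, minus strand), the inhibitor, spread more among wild-type than among RAG1-/- tumors. It stood at 116 and 122 normalized counts in MC38 cells and at 114 and 88.0 in skin. Tumors labelled RAG1-/- held 163, 168 and 149.6 at day 13 and 194, 162 and 164 at day 23. Wild-type tumors held 313, 155 and 252 at day 23 and 116, 179.9 and 284 at day 46. The coefficient of variation was 35.9% over the wild-type tumors and 8.80% over the tumors labelled RAG1-/-, a difference that was not tested. The means of 217 ± 77.8 (SD, n = 6) and 167 ± 14.7 (SD, n = 6) differed by 0.30 on the log2 scale (SE 0.21, limma adjusted p = 0.641). This value was 0.14 without wild-type day 46 replicate 3 and 0.46 without wild-type day 46 replicate 1.

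The order of the group means can be given for each gene. Wild-type day 23 tumors had the highest mean for Ifng, Irf1, Irf8 and Socs1, and skin had the highest for Ifngr1, Ifngr2, Stat2, Irf7 and Irf9. MC38 cells came last for Ifngr1, Ifngr2, Stat2, Irf1, Irf7, Irf8 and Irf9, tied with RAG1-/- day 13 tumors at 0 for Ifng, and stood above skin for Socs1. Among the 4 tumor groups, neighbours in this order overlapped in range for every gene.

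The 9 genes were highest in the same wild-type tumor. Wild-type day 23 replicate 1 held the highest value of the 6 wild-type tumors for 9 of 9 members, whereas this library was the highest for 15.5% of the 14746 genes tested, a comparison chosen after the values were seen. The same library had the highest Cd8a of all tumors at 79.7 normalized counts. Its summed macrophage and monocyte markers, 19147, were the highest of the 12 tumors as well. Its summed T cell markers, 365, were below the 517 of wild-type day 46 replicate 2. Most of that 517 was Thy1 alone, at 379 there against 127 in wild-type day 23 replicate 1. Thy1 was also read in every tumor labelled RAG1-/-, at 26.2 to 147, so this sum is a poor measure of T cells. The part of these cells in the members' levels was not tested, and in bulk RNA fewer cells of a type and less RNA per cell cannot be told apart. Among the tumors labelled RAG1-/- the highest values were spread over 5 libraries, and day 23 replicate 1 was the lowest for 5 of 9 members. Without wild-type day 23 replicate 1 the fitted difference over both days moved from 0.53 to 0.38 for Stat2, from 0.51 to 0.37 for Irf8, from 0.32 to 0.21 for Irf9, from 0.30 to 0.19 for Socs1 and from 0.07 to -0.04 for Irf7.

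**Figure D3:**
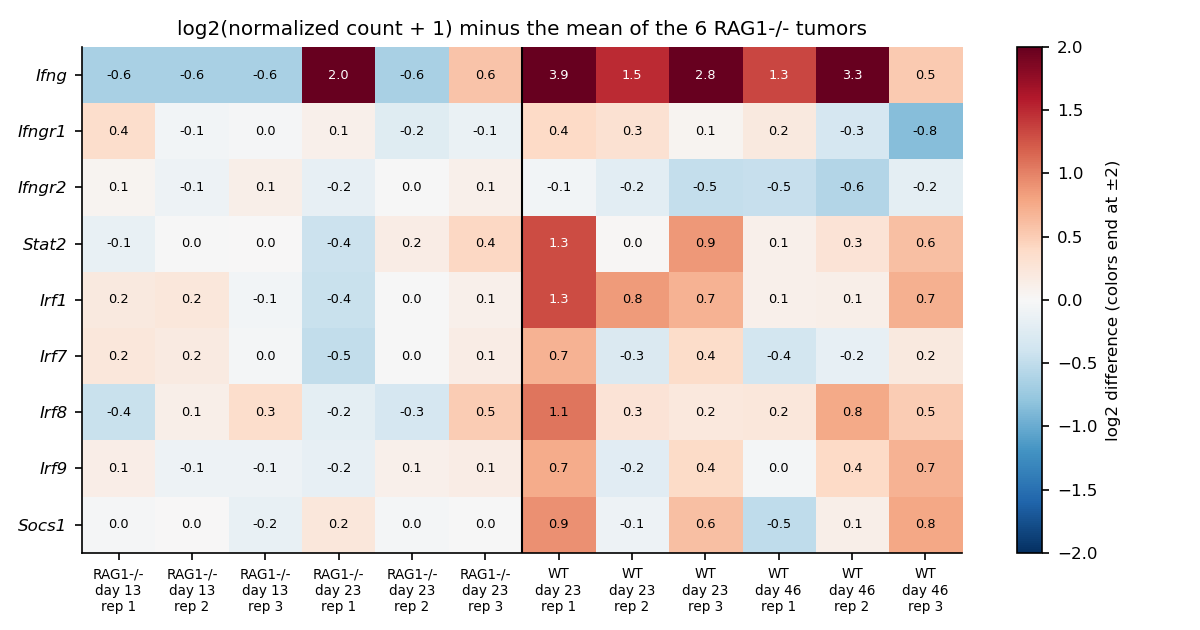
Level of each of the 9 genes in each of the 12 tumors, as log2(normalized count + 1) minus the mean of the 6 RAG1-/- tumors, with the value written in each cell. WT day 23 replicate 1 is the highest wild-type column in every row, at 3.9 for Ifng and 1.3 for Irf1 and Stat2.

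Genes that followed each member were taken as the 3 with the highest Pearson correlation over the 12 tumors among the 12061 genes that averaged 20 or more normalized counts there. The points share the genotype groups, so these values are a description. Irf1 went with H2-DMb1 (r = 0.93), which helps load MHC class II molecules, and with the interferon-gamma-induced guanylate-binding protein Gbp5 (r = 0.91). Within the 6 wild-type tumors these were 0.97 and 0.86, and within the 6 tumors labelled RAG1-/- they were 0.81 and 0.86. Stat2 went with the interferon-inducible Mndal (r = 0.95), with Eif4e3 (r = 0.92) and with Parp14 (r = 0.90). Irf8 went with Rhog (r = 0.94), Guca1a (r = 0.94) and the macrophage complement gene C1qb (r = 0.93). Irf7 went with Snai1 (r = 0.90), Ptms (r = 0.87) and the interferon-stimulated gene Ifit1 (r = 0.86). Ifng, at few reads, went with Zfp30 (r = 0.88), the guanylate-binding protein gene Gbp8 (r = 0.87) and Ubap2l (r = 0.85).

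The neighbours of the other members are given in the same way. Ifngr1 went with Mpc2 (r = 0.95), Hmmr (r = 0.94) and Arl6ip6 (r = 0.92). Ifngr2 went with Ndufs4 (r = 0.93), Zfp748 (r = 0.90) and Donson (r = 0.86). Irf9 went with Nck2 (r = 0.93), Akap13 (r = 0.91) and Gas2l1 (r = 0.89), the last at 0.98 within wild-type tumors and 0.25 within tumors labelled RAG1-/-. Socs1 went with Flot2 (r = 0.91), Susd6 (r = 0.88) and Dap (r = 0.87), and for Susd6 the value was 0.94 within wild-type tumors and 0.08 within tumors labelled RAG1-/-. Among the members, Stat2 and Irf9 had the highest pairwise value over the 12 tumors (r = 0.84). It was 0.82 within wild-type tumors and 0.65 within tumors labelled RAG1-/-. The highest pair within wild-type tumors was Stat2 with Irf7 (r = 0.99). Within tumors labelled RAG1-/- it was Irf1 with Irf7 (r = 0.99).

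The time course was compared within each genotype. From day 23 to day 46 in wild-type tumors 8 of 9 fitted changes were below 0, and none was called. Irf1 moved by -0.64 (SE 0.21, limma adjusted p = 0.444) and Ifngr1 by -0.58 (SE 0.23, limma adjusted p = 0.520), which was -0.32 without day 46 replicate 3. From day 13 to day 23 in tumors labelled RAG1-/- 5 of 9 changes were below 0 and none was called, with Irf1 at -0.24 (SE 0.21, limma adjusted p = 0.694), or -0.07 without day 23 replicate 1. With the 12 tumors fitted together limma called 0% of 14746 genes in either time comparison, as did edgeR, although 1261 and 1722 genes had an unadjusted p under 0.05 in limma. DESeq2 called 41 and 206 genes, and limma with the compared groups alone called 0 and 23. The test of the difference between the 2 time effects called no member either, with Irf1 at -0.40 (SE 0.29, limma adjusted p = 0.753). Day 46 was not sampled in RAG1-/- hosts and day 13 not in wild-type hosts, so time and genotype are not crossed.

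Of the 8 members that could be tested 7 were higher in tumors than in cultured MC38 cells, in tumors of either genotype. In this comparison 15.8% of 14708 genes were called higher in tumors labelled RAG1-/- and 18.3% in wild-type tumors, and the same MC38 libraries served both. The 8 members had all tumors above both MC38 libraries in tumors labelled RAG1-/-, against 21.2% of genes. In wild-type tumors this held for 7 of the 8 and not for Socs1, against 21.7% of genes. The median fitted change over the 8 members was 2.24 in tumors labelled RAG1-/- and 2.48 in wild-type tumors, beside 0.06 and 0.05 over all genes tested. The calls over all genes were 2317 higher and 1111 lower for tumors labelled RAG1-/- and 2687 and 1413 for wild-type tumors. Upper quartile scaling split them into 2091 and 1687 and into 2324 and 2298, and the 7 members kept their calls under it.

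Both receptor chains were higher in the tumors of either genotype than in MC38 cells. Ifngr1 was higher by 2.09 on the log2 scale in tumors labelled RAG1-/- (SE 0.22, limma adjusted p = 1.13e-06) and by 2.06 in wild-type tumors (SE 0.22, limma adjusted p = 1.24e-06). For Ifngr2 these values were 1.25 (SE 0.17, limma adjusted p = 2.00e-05) and 0.92 (SE 0.17, limma adjusted p = 0.000459). Stat2 was higher by 2.38 (SE 0.28, limma adjusted p = 3.56e-06) and 2.91 (SE 0.28, limma adjusted p = 2.31e-07). Irf9 was higher by 2.88 (SE 0.27, limma adjusted p = 2.25e-07) and 3.21 (SE 0.27, limma adjusted p = 4.79e-08).

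Irf1 rose by 1.23 in tumors labelled RAG1-/- (SE 0.20, limma adjusted p = 0.000119) and by 1.86 in wild-type tumors (SE 0.20, limma adjusted p = 7.90e-07). For Irf7 the 3 MC38 reads gave a ratio of 308 for tumors labelled RAG1-/-, with a 95% counting interval of 105 to 1495, and of 332 for wild-type tumors, with 114 to 1610.3. For Irf8 the 7 MC38 reads gave ratios of 109 (52.8 to 271) and 154 (74.8 to 383). These intervals cover the counting error of the MC38 reads only. Socs1 was not called, at 0.48 (SE 0.29, limma adjusted p = 0.263) and 0.78 (SE 0.29, limma adjusted p = 0.0559), while edgeR and DESeq2 called it for wild-type tumors with adjusted p of 0.0486 and 0.0220.

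Markers of infiltrating cells moved with these differences. All 7 macrophage and monocyte markers were called higher in tumors of either genotype, and their summed level ran from 43.6 to 66.5 in MC38 cells and from 10271 to 19147 in tumors, with Adgre1 and Fcgr1 at 0 in both MC38 libraries. Of the 4 fibroblast markers 3 were higher as well. Of the dendritic cell markers 1 of 3 tested was called, with Flt3, Clec9a, Xcr1, Siglech and Itgax at 0 in MC38 cells. Of 7 tested T cell markers 1, Thy1, was higher in tumors labelled RAG1-/- and 6 in wild-type tumors. Cd3e, Cd3g and Cd8b1 were at 0 in all tumors labelled RAG1-/-. Of 2 tested B cell markers 1, Cd79b, was higher in tumors labelled RAG1-/- and 2 in wild-type tumors. Of 3 tested natural killer cell markers, 1 in tumors labelled RAG1-/- and 2 in wild-type tumors were higher and Eomes was lower in both. The part of these cells in the members' levels was not tested.

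**Figure D4:**
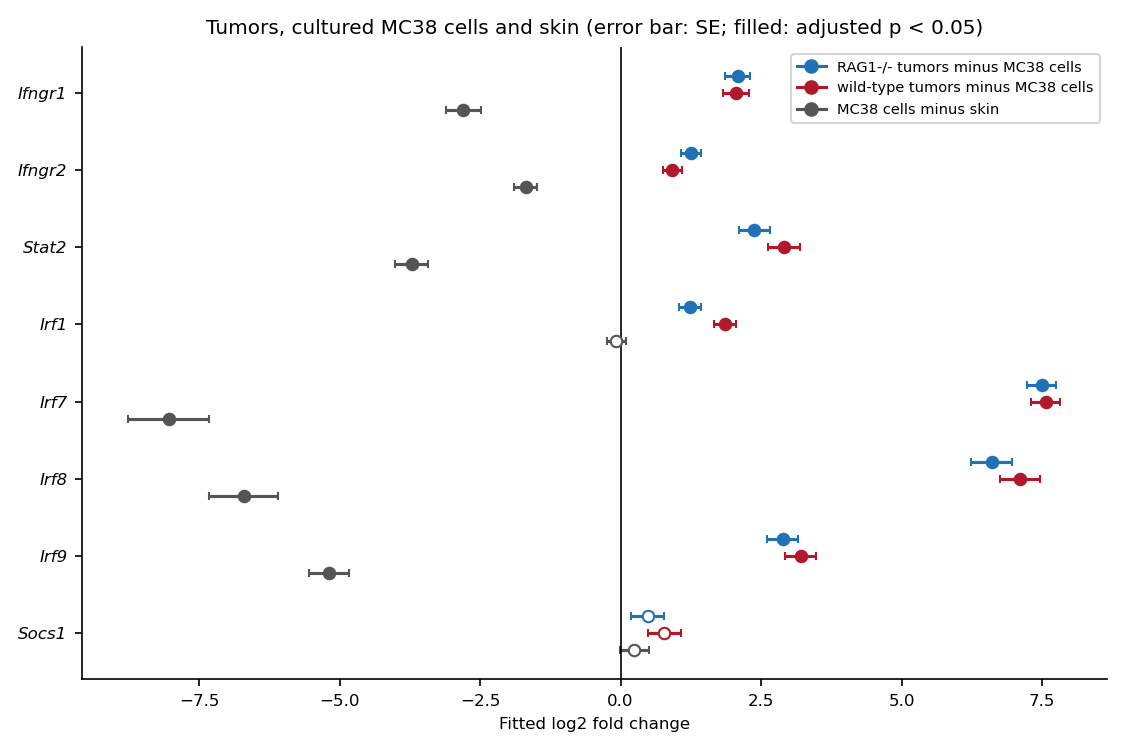
Fitted log2 fold changes with standard errors for the 8 genes tested, as RAG1-/- tumors minus MC38 cells, wild-type tumors minus MC38 cells and MC38 cells minus skin. Filled points have a limma adjusted p under 0.05. Irf7 and Irf8 show the widest gaps and Socs1 is open in all 3 comparisons.

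Cultured MC38 cells were lower than skin for 6 of the 8 members tested, where 41.2% of 16780 genes were called lower and 20.8% higher. The fitted differences were -8.04 for Irf7 (SE 0.71, limma adjusted p = 0.000765) and -6.71 for Irf8 (SE 0.61, limma adjusted p = 0.000831), both against few MC38 reads. For Irf9 the value was -5.19 (SE 0.35, limma adjusted p = 0.000364) and for Stat2 it was -3.72 (SE 0.29, limma adjusted p = 0.000534). The receptor chains differed by -2.80 for Ifngr1 (SE 0.31, limma adjusted p = 0.00153) and -1.69 for Ifngr2 (SE 0.21, limma adjusted p = 0.00193). The calls of Ifngr2, Irf8 and Irf9 were lost when either skin library was left out, with limma adjusted p of 0.0556 to 0.0761, while the values stayed at -1.54 and -1.84, -6.76 and -6.66, and -5.14 and -5.23. Irf1 at -0.08 (SE 0.17, limma adjusted p = 0.729) and Socs1 at 0.25 (SE 0.25, limma adjusted p = 0.442) were not called, and the sign of Irf1 turned to 0.40 and 0.34 under upper quartile and total scaling. The 6 members lower in MC38 cells had both libraries below both skin libraries, as had 51.4% of genes. Markers of skin and immune cells moved with the members. All 7 macrophage and monocyte, 8 T cell, 2 tested B cell and 5 keratinocyte markers were called lower in MC38 cells, as were 4 of 6 tested dendritic cell and 3 of 4 fibroblast markers, while the fibroblast gene Pdgfra was higher. The summed keratinocyte markers ran from 310 to 311 in MC38 cells and from 240917 to 244315 in skin, and the summed macrophage markers from 43.6 to 66.5 and from 7522 to 8150. The part of these cells in the members' differences was not tested. The median over all genes was -0.40 here and 0.01 after total scaling, which called 4969 genes higher and 5758 lower in place of 3482 and 6920.

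The other genes of the pathway were counted from lists. Between genotypes over both days the receptor kinases Jak1 and Jak2 differed by -0.02 and 0.25 and were not called. In either genotype comparison none of 5 tested other IRF factors and none of 12 negative regulators of the pathway was called. Nor was any of 3 tested type I or III interferon and receptor genes or of 28 ISGF3 targets. Of all 14746 genes 0.278% were called in either direction at day 23 and 0.712% over both days. An absence of calls in lists of this length therefore says little. The median fitted change of the ISGF3 targets was 0.27 at day 23 and 0.09 over both days, beside 0.01 over all genes in each. Of 9 tested inducers of Ifng, none was called at day 23 and 2 were higher over both days, the interleukin-12 receptor chain Il12rb1 by 1.98 (SE 0.37, limma adjusted p = 0.0170) and Il15, which sustains natural killer and memory T cells, by 0.91 (SE 0.18, limma adjusted p = 0.0311).

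Of 25 tested interferon-gamma targets, 14 were higher in wild-type tumors over both days, where 0.57% of all genes were, and 9 at day 23, where 0.231% were. None was lower, and their median over both days was 1.25 against 0.01 over all genes. The largest changes among the 14 called were the chemokine Cxcl9 with 4.72, the GTPase gene Iigp1 with 2.77, its relative Igtp with 1.72 and the class II invariant chain Cd74 with 1.60. Cxcl9 held 736 to 3899 normalized counts in the wild-type tumors and 29.8 to 127 in the tumors labelled RAG1-/-, with no overlap. The list was written with earlier results of these data known and is no independent evidence of its direction. Beside this, 5 of 7 tested T cell markers, with a median of 3.69 over the 7, and the B cell gene Igkc were higher in wild-type tumors. None of the 7 macrophage markers was called. Of 5 natural killer cell markers only 3 were tested, Klrk1, Klre1 and Eomes, and none was called. Eomes says little of these cells here, since MC38 cells held it at 190 and 235 normalized counts, above every tumor. The part of these cells in the targets' levels was not tested. Against MC38 cells all 25 targets were higher in tumors of either genotype, and 25 of 28 ISGF3 targets were higher in tumors labelled RAG1-/- and 27 in wild-type tumors.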

How the data were processed

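RNA of MC38 cells, skin and tumors was measured as QuantSeq 3′ tags on an Ion Proton. Per the labels and the study's methods, the authors trimmed reads with Cutadapt and Trimmomatic, aligned them to mm10 with STAR and then Bowtie2, counted reads per gene with HTSeq and divided the counts by DESeq2 size factors. The deposited signal is this normalized count. Strand setting, annotation and tool versions are not given in the sources used here, so reads of overlapping genes may be misassigned. Of the 22 samples, 6 tumors treated with an antibody or its control were not used here, since the column names of their table match no label.

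Groups came from the labels. limma 3.58.1 (R 4.3.3) took log2(normalized count + 1), let the spread depend on the mean and kept genes averaging 5 or more over the libraries fitted, testing both directions with Benjamini-Hochberg adjustment over all genes tested and a threshold of 0.05. Fold changes on this scale understate those of low genes. The 12 tumors shared a fit, MC38 cells were added for the tumor comparisons, and MC38 cells and skin were fitted alone. Exact permutation tests were two-sided on the mean of log2(normalized count + 1). Whole reads were recovered from 100% of values (within 0.01 of a whole number) and tested with edgeR 4.0.16 and DESeq2 1.42.0 as alternatives. edgeR called 22 genes between genotypes at day 23 and 111 over both days, where limma called 41 and 105. In single libraries 3 reads were worth 1.33 to 6.38 normalized counts. Scripts were tested on simulated reads with 200 genes changed, of which limma recovered 60% to 75%, depending on the comparison. False calls numbered 6 to 10 with limma, 4 to 9 with edgeR and 5 to 26 with DESeq2.

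The 9 members and all gene lists were chosen with earlier results of these data known. All members were named. From each list up to 4 called genes could be named, those that changed most between genotypes over both days, with marker genes, Jak1, Jak2 and the 3 genes most like each member. Some items this rule would name are not reported here.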

Additional observations from a re-analysis of the deposited data

Results flagged for a closer look

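Ifng in RAG1-/- day 23 replicate 1, at 5.24 normalized counts from 4 reads, was marked by its gap to the other 5 tumors labelled RAG1-/-. This gap to the nearest of them was 0.747 of the range of the 6 tumors, above Dixon's 95% critical value. It was the 1 value to do so among 18 sets of 6 tumors (9 genes in both genotypes), and chance marks about 1 set in 20. The nearest tumor, day 23 replicate 3, held 3 reads in a deeper library (size factor 2.26 against 0.764) and the other 4 held 0, so at so few reads this does not show that the library stands apart.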

How the results depend on the processing

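Of 1060 alternative values of single members, 1008 kept their direction and their side of the threshold, 29 changed sign, 17 lost a call and 6 gained one. The number of members called at day 23 fell from 1, Irf1, to 0 with a pseudocount of 0.1, no filter, total scaling, no trend or edgeR, and ranged from 0 to 1 with each replicate left out. Over both days it rose from 0 to 1, again Irf1, with DESeq2, and ranged from 0 to 1 with each replicate left out. For MC38 cells against skin it ranged from 3 to 6, since without either skin library the calls of Ifngr2, Irf8 and Irf9 were lost. That fit left 1 skin library, assumed to vary like MC38 cells, and the differences themselves moved by little (Irf8 -6.76 and -6.66, Irf9 -5.14 and -5.23, Ifngr2 -1.54 and -1.84). Other counts of members called stayed within 1.5 times their value.

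Same-numbered tumors showed no general tendency to deviate together (r from -0.236 to 0.246 over 18 pairs, 4 of them over 0.1). The mean was 0.0139, beside -0.00673 over 36 pairs of different number. A pairing by number was thus not seen, though a small shared effect could be missed, since each tumor also varies by itself. With the replicate block 0 members were called at day 23, where Irf1 kept 1.07 (adjusted p = 0.0592). The block called 39 genes there against 41, and 109 over both days against 105.

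None of the values that changed sign passed the threshold on either side. Under total scaling Irf8 from day 23 to day 46 was 0.014, and from day 13 to day 23 Stat2 was -0.027, Irf9 -0.062 and Socs1 -0.0047. Irf8 from day 13 to day 23 was 0.012 with edgeR and 0.011 with DESeq2. Irf1 in MC38 cells minus skin was 0.40 with upper quartile scaling, 0.34 with total scaling, 0.050 with edgeR and 0.0076 with DESeq2, and ranged from -0.21 to 0.062 with a replicate left out. With a replicate left out, the difference between genotypes over both days ranged from -0.16 to 0.10 for Ifngr1 and from -0.035 to 0.21 for Irf7. The change from day 23 to day 46 ranged from -0.17 to 0.26 for Irf8 and from -0.21 to 0.27 for Irf9. The change from day 13 to day 23 ranged from -0.11 to 0.023 for Ifngr2, from -0.093 to 0.33 for Stat2, from -0.27 to 0.16 for Irf8 and from -0.0048 to 0.15 for Irf9. The cause was not tested.

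Counts over all genes moved by over 1.5 times in some settings. At day 23 the 41 calls became 22 with no filter, 15 with no trend, 22 with edgeR, 239 with DESeq2 and 5 to 60 with a replicate left out. The 105 calls over both days became 48 with no trend, 283 with DESeq2 and 65 to 171 with a replicate left out. The 0 calls became 41 with DESeq2 from day 23 to day 46, 206 with DESeq2 and 23 with only the compared groups from day 13 to day 23, and 58 with DESeq2 for the difference of the time effects. With a replicate left out, up to 7 and up to 37 genes were called in the time comparisons, 1832 to 3569 in RAG1-/- tumors against MC38 cells, 2172 to 4396 in wild-type tumors against MC38 cells and 6253 to 7400 in MC38 cells against skin. The levels of Ifng rest on 0 to 31 reads a library, so a difference between tumors of a few reads was not detectable at this depth.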
